A study of Homo sapiens with 8 samples.

Results

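AP-1 is a transcription factor made of pairs of leucine zipper proteins, in which a Jun protein (JUN, JUNB, JUND) binds another Jun or a Fos protein (FOS, FOSB, FOSL1, FOSL2). Immediate early genes include FOS, FOSB, JUN, JUNB, EGR1 and IER2. Growth factors, serum or stress switch them on within minutes, with no new protein synthesis, and their transcripts are short-lived. FOSL1 and FOSL2 usually follow later, are sustained by ERK signalling and are often abundant in invasive carcinoma cells. ATF3 is a related leucine zipper factor of the stress response. The 10 genes FOS, FOSB, FOSL1, FOSL2, JUN, JUNB, JUND, EGR1, IER2 and ATF3 were chosen by name from 19775 genes. They were read by 24 probe sets that each name 1 of them alone, and a gene was represented by its probe set with the highest mean over the 8 arrays. All 10 were measured, and no filter on low values was applied.

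The arrays came from established human colorectal adenocarcinoma lines, 1 array per sample and 2 per group. HT29 spheres grew without serum, in DMEM-F12 to which N2, bFGF (10 ng/ml) and EGF (10 ng/ml) were added, and HT29 parental cells in DMEM with 10% fetal bovine serum. The SW480 groups, a stable line labelled as expressing Snail and a stable vector control line, were both grown in DMEM with 10% fetal bovine serum. The labels give no time since feeding or plating, do not say whether a stable line is 1 clone or a pool, and leave unsaid whether both arrays of a group had a culture each. The spread behind each p-value is that between the 2 arrays of a group, pooled over the 4 groups and moderated over all genes. It may be technical. A wide gap between the 2 arrays of 1 group, such as HT29 parental, thus also enters the SE of comparisons without that group. Sphere form and medium changed together and cannot be told apart, and in bulk samples fewer expressing cells and less RNA per cell cannot be told apart.

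Values are log2 RMA values, the authors' background-corrected and normalised level per probe set. Array medians lay between 5.50 and 5.61 log2. SNAI1, which encodes Snail, read 6.32 and 6.38 in the SW480 arrays labelled Snail, against 6.36 and 6.34 in vector arrays (0.0034 ± 0.15 SE, limma adjusted p = 0.992), so the label was not borne out by this probe set. The same probe set read 1.07 ± 0.15 log2 higher in HT29 spheres than in parental cells (limma adjusted p = 0.000318). Whether it reads the introduced sequence is not given, and Snail is kept below as a label. Of 10 colon epithelial markers, all 10 lay above the array median in both HT29 groups and 7 in both SW480 groups, where KRT20, LGALS4 and CEACAM5 lay below it. Between the 2 HT29 parental arrays 200 genes differed by 2-fold or more, and between the arrays of each other group 10 to 19 did. In the arrays labelled Snail, 5 of the 6 ribosomal RNA control probe sets read 0.80 to 1.92 log2 higher than in vector arrays, and the sixth 0.10 higher. The BioC hybridisation control read 1.69 log2 higher in spheres than in parental cells, and the controls BioB, BioD and Cre 0.41, 0.14 and 0.13 higher. The actin 3′ minus 5′ control difference, a sign of RNA quality, was 0.72 to 0.95 log2 in spheres and 0.59 to 0.66 in parental cells, and 0.20 to 0.22 in the arrays labelled Snail and 0.12 to 0.18 in vector cells. The part of these controls in the changes below was not tested.

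Promoters of the 4 members with a match to a motif named below are shown first. EGR1 had the largest rise in the arrays labelled Snail. JUN, JUND and ATF3 rose in both comparisons, as did FOSL2, whose window held no match and is not shown. Each line holds the 250 bases before the RefSeq transcription start on assembly GRCh38.p14, 5′ to 3′ on the gene's strand, with matches in capitals. The EGR1 window is chr5:138465229-138465478 on the plus strand, JUN chr1:58784048-58784297 on the minus strand, JUND chr19:18281623-18281872 on the minus strand and ATF3, at the more upstream of its 2 starts, chr1:212565157-212565406 on the plus strand.
EGR1: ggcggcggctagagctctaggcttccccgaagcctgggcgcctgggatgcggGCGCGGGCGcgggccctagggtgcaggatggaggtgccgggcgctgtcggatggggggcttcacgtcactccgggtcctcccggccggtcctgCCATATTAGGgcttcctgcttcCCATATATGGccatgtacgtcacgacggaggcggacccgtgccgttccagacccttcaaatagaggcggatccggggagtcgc
JUN: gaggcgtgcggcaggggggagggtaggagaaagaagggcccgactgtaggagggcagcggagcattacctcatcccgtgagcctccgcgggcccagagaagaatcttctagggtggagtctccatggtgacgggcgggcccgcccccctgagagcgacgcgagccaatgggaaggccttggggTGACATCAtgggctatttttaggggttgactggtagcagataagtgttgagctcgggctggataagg
JUND: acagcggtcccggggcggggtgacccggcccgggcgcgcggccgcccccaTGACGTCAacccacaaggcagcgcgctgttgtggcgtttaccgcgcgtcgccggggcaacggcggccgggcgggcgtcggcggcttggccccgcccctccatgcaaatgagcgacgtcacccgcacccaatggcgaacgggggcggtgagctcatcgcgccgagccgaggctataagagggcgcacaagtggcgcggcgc
ATF3: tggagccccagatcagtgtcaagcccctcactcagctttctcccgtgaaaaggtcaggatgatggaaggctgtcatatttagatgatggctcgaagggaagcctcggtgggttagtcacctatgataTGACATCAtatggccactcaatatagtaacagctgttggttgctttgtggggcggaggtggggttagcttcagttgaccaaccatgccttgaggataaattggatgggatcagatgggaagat

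Matches to 4 motifs were sought on both strands of such windows, which were held for 9 members. The CArG box, bound by serum response factor, matched at 105 and 83 bases before the start of EGR1 and in 1.16% of all 35116 windows. The letters TGACNTCA, a form of the site bound by ATF and Jun pairs, matched at 67 bases before the start in JUN, 200 in JUND and 123 in ATF3, and in 6.87% of all windows. The EGR site GCGNGGGCG matched once, in EGR1, and in 8.41% of all windows. The AP-1 site TGANTCA matched in 0 of the 9 members and in 6.57% of all windows. These motifs do not overlap in the windows shown. A match is a run of letters and was not tested as a binding site. FOSL1 had no window in the table used.

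In HT29 spheres 5 of the 10 members were higher than in parental cells. FOSL1 was 4.91-fold, FOSL2 3.67-fold, JUN 2.72-fold, ATF3 2.29-fold and JUND 1.80-fold higher in spheres. FOS, FOSB, JUNB, EGR1 and IER2 did not pass. Thus 5 of 10 members were called, all 5 higher, where 31.4% of all genes were called at a limma adjusted p under 0.05, 12.4% higher and 19.0% lower. Without the dimmest 40% of genes by mean level, which kept all 10 members, 50.7% of genes were called. The count of 5 of 10 was near that share. The members' median change was 0.67 log2, against 0.04 over all genes. The sphere and parental arrays of 6 members did not overlap, near the 62.9% of all genes for which this held.

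FOSL1, which encodes the AP-1 subunit FRA-1, read 9.87 and 9.86 log2 in spheres, against 7.91 and 7.23 in parental cells. The sphere arrays were nearly equal and both lay well above both parental arrays, a change of 2.30 ± 0.20 SE log2 (limma adjusted p = 1.78e-05). FOSL2, which encodes FRA-2, read 10.19 and 10.04 log2 in spheres, against 7.997 and 8.48 in parental cells. The groups did not overlap, and the change was 1.88 ± 0.18 log2 (limma adjusted p = 3.61e-05). All 5 probe sets of FOSL2 were higher in spheres, by 1.13 to 1.88 log2, and each passed the threshold among all probe sets naming 1 gene.

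JUN, the main partner of Fos proteins and a factor that can also pair with itself, read 11.72 and 11.80 log2 in spheres, against 10.06 and 10.57 in parental cells (1.44 ± 0.18, limma adjusted p = 0.000162). Sphere arrays lay more than 1 log2 above the higher parental array. The 4 probe sets of JUN all rose, by 0.88 to 2.33 log2. JUND, the Jun protein that resting cells also carry, read 12.06 and 12.10 log2 in spheres, against 11.13 and 11.33 in parental cells (0.85 ± 0.15, limma adjusted p = 0.00155). The groups were again apart, and 3 of the 4 JUND probe sets rose by 0.85 to 0.87 log2. The fourth, the dimmest at a mean of 5.20 log2, below every array's median, changed by -0.13 and did not pass. JUNB, which often restrains JUN, read 9.81 and 9.76 log2 in spheres, against 9.41 and 9.85 in parental cells. The parental arrays spanned both sphere values, and its difference of 0.16 log2 had a 95% interval from -0.20 to 0.52 (limma adjusted p = 0.51).

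FOS, the founding Fos gene, read 10.86 and 10.61 log2 in spheres, against 10.07 and 11.21 in parental cells. The sphere values lay inside the gap of 1.14 log2 between the parental arrays, and the difference was 0.10 log2 with a 95% interval from -0.57 to 0.77 (limma adjusted p = 0.84). FOSB, its close paralogue, read 9.73 and 9.57 log2 in spheres, against 8.81 and 9.50 in parental cells. Those arrays did not overlap, but the difference of 0.49 ± 0.26 log2 did not pass (limma adjusted p = 0.191).

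EGR1, a zinc finger factor induced through serum response factor, read 12.67 and 12.51 log2 in spheres, against 11.80 and 12.75 in parental cells. The parental arrays spanned the sphere arrays (0.31 ± 0.25, limma adjusted p = 0.407), and the probe sets of EGR1 disagreed. A dimmer one read 10.54 and 10.62 log2 in spheres, against 9.88 and 9.82 in parental cells, and rose by 0.73 (limma adjusted p = 0.00141), while the third changed by 0.34 and did not pass. Leaving out parental array 2 gave a rise of 0.78 log2 for EGR1 (limma adjusted p = 0.00926) and of 0.67 for FOS (limma adjusted p = 0.0418), and without parental array 1 the 2 values were -0.17 and -0.47, neither past the threshold. IER2, a nuclear immediate early protein, read 11.27 and 11.23 log2 in spheres, against 11.13 and 11.47 in parental cells (-0.05 ± 0.15, limma adjusted p = 0.83). ATF3 read 9.86 and 9.97 log2 in spheres, against 8.94 and 8.50 in parental cells, and rose by 1.20 ± 0.16 (limma adjusted p = 0.000225). Its groups did not overlap, and its 2 dimmer probe sets each rose by 0.80 log2.

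**Figure D1:**
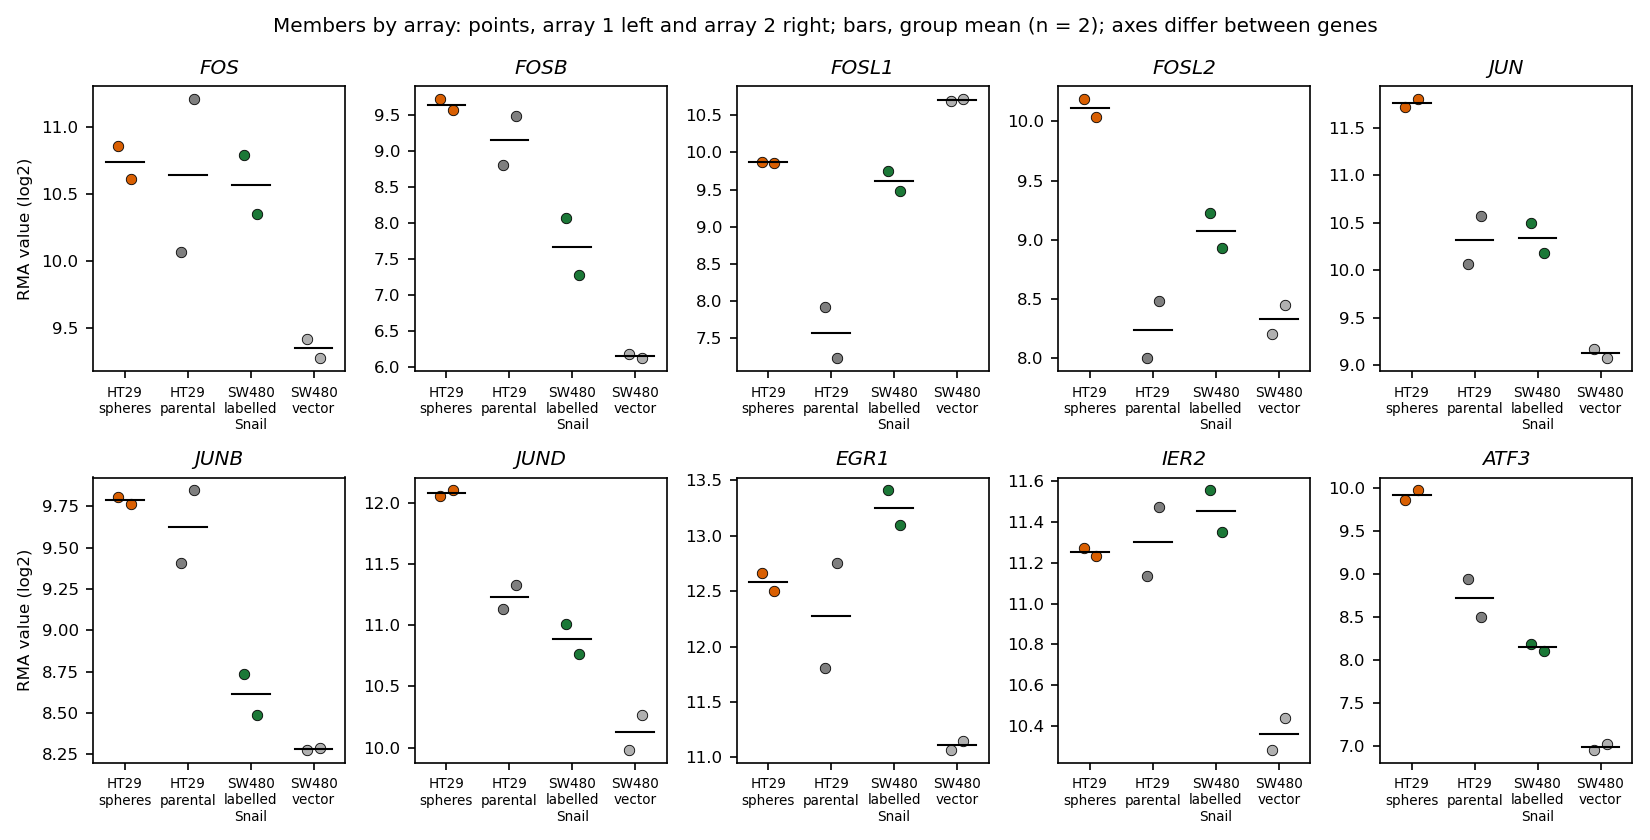
RMA value (log2) of each member on the 8 arrays, a panel per gene with its own axis, array 1 left and array 2 right in each group, and a bar for the group mean of 2 arrays. FOSL1 is highest in SW480 vector cells (10.71) and lowest in HT29 parental cells (7.57), while the other members except FOSL2 are lowest in SW480 vector cells.

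In the SW480 arrays labelled Snail nearly the whole group was higher, with FOSL1 going the other way. EGR1 was 4.42-fold, FOSB 2.88-fold, FOS 2.33-fold, JUN 2.31-fold, ATF3 2.23-fold and IER2 2.13-fold higher than in vector cells, and JUND and FOSL2 1.69-fold and 1.68-fold higher. FOSL1 was 2.13-fold lower. Thus 9 of 10 members were called, 8 higher and 1 lower, where 16.2% of all genes were called, 8.91% higher and 7.34% lower. Without the dimmest 40% of genes 28.9% were called. The members' median change was 1.12 log2, against 0.0073 over all genes. All 10 members had arrays that did not overlap, which held for 60.4% of all genes. Leaving out any 1 of the 8 arrays left 6 to 9 members called, with 5 called higher without vector array 1 or without Snail-labelled array 1.

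EGR1 read 13.41 and 13.09 log2 in arrays labelled Snail, against 11.07 and 11.15 in vector cells. The groups lay nearly 2 log2 apart, at 2.14 ± 0.25 (limma adjusted p = 0.00053), and all 3 probe sets of EGR1 rose, by 1.07 to 2.16. IER2 read 11.55 and 11.35 log2 in arrays labelled Snail, against 10.28 and 10.44 in vector cells (1.09 ± 0.15, limma adjusted p = 0.00106). Both genes had not passed in spheres, and the difference between the comparisons was itself past the threshold, at -1.84 ± 0.36 log2 for EGR1 (limma adjusted p = 0.00366) and -1.14 ± 0.21 for IER2 (limma adjusted p = 0.00263). The probe sets of EGR1 disagreed on this difference. The one that rose in spheres gave -0.33 (limma adjusted p = 0.224), and the dimmest gave -1.82 (limma adjusted p = 0.00473).

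FOS read 10.79 and 10.35 log2 in arrays labelled Snail, against 9.42 and 9.28 in vector cells (1.22 ± 0.30, limma adjusted p = 0.0207). The groups did not overlap, but the call was lost without any 1 of the 4 SW480 arrays, where the change stayed at 1.00 to 1.44 log2. FOSB read 8.07 and 7.27 log2 in arrays labelled Snail, against 6.17 and 6.12 in vector cells (1.53 ± 0.26, limma adjusted p = 0.00366). The 2 arrays labelled Snail were 0.80 log2 apart in FOSB, a gap wider than that of 99.7% of genes, and both still lay above the vector arrays. For neither gene did the difference from the sphere comparison pass, at -1.12 log2 for FOS (limma adjusted p = 0.0779) and -1.03 for FOSB (limma adjusted p = 0.0656). Both passed with a variance trend (limma adjusted p = 0.0378 for FOS and 0.0379 for FOSB) and with a replicate block. Array weights passed FOS alone, median centring FOSB alone, and the other settings that left out no array neither. Without parental array 1 both passed, at -1.69 for FOS (limma adjusted p = 0.00223) and -1.37 for FOSB (limma adjusted p = 0.0237).

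JUN read 10.49 and 10.18 log2 in arrays labelled Snail, against 9.17 and 9.07 in vector cells (1.21 ± 0.18, limma adjusted p = 0.00168). No array of one group reached the other, and all 4 JUN probe sets rose, by 0.73 to 1.84 log2. JUND read 11.01 and 10.76 log2 in arrays labelled Snail, against 9.98 and 10.27 in vector cells (0.76 ± 0.15, limma adjusted p = 0.00725). Only the probe set used passed for JUND, and the other 3 changed by 0.03 to 0.37. The JUND call was also lost without vector array 1 (0.62, limma adjusted p = 0.072) and without Snail-labelled array 1 (0.64, limma adjusted p = 0.0705). JUNB, at 8.74 and 8.49 log2 in arrays labelled Snail against 8.28 and 8.29 in vector cells, was the 1 member that did not pass (0.33 ± 0.16, limma adjusted p = 0.207). Its arrays did not overlap.

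FOSL1 read 9.74 and 9.49 log2 in arrays labelled Snail, against 10.69 and 10.72 in vector cells. The arrays labelled Snail were both lower, by 1.09 ± 0.20 (limma adjusted p = 0.00489), and without Snail-labelled array 2 the change of -0.96 was no longer past the threshold (limma adjusted p = 0.0532). The comparison of the 2 effects gave 3.39 ± 0.28 log2 for FOSL1, the largest such difference among the members (limma adjusted p = 2.81e-05). FOSL2 read 9.22 and 8.93 log2 in arrays labelled Snail, against 8.20 and 8.45 in vector cells (0.75 ± 0.18, limma adjusted p = 0.0195). The rise of FOSL2 rests on 1 probe set, since the other 4 changed by -0.11 to 0.28 and none passed. It was lost without vector array 1 (0.63, limma adjusted p = 0.134) and without Snail-labelled array 1 (0.60, limma adjusted p = 0.146). For FOSL2 the difference between the comparisons was 1.13 ± 0.26 log2 (limma adjusted p = 0.00864). ATF3 read 8.19 and 8.10 log2 in arrays labelled Snail, against 6.96 and 7.03 in vector cells (1.15 ± 0.16, limma adjusted p = 0.000996). Its 2 dimmer probe sets changed by 0.26 and 0.24 and did not pass. Of the 10 members 4 thus differed between the comparisons, where 27.5% of all genes did. Without the dimmest 40% of genes 44.9% did, so the count of 4 of 10 was near that share. FOSL1 and FOSL2 changed more in spheres, and EGR1 and IER2 more in the arrays labelled Snail. For JUN, JUND, JUNB and ATF3 the difference ran from -0.17 to 0.23 log2 and did not pass, with 95% intervals no wider than -0.68 to 0.80. A dimmer probe set of JUN gave a difference of 0.98 log2 that passed (limma adjusted p = 0.0278).

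**Figure D2:**
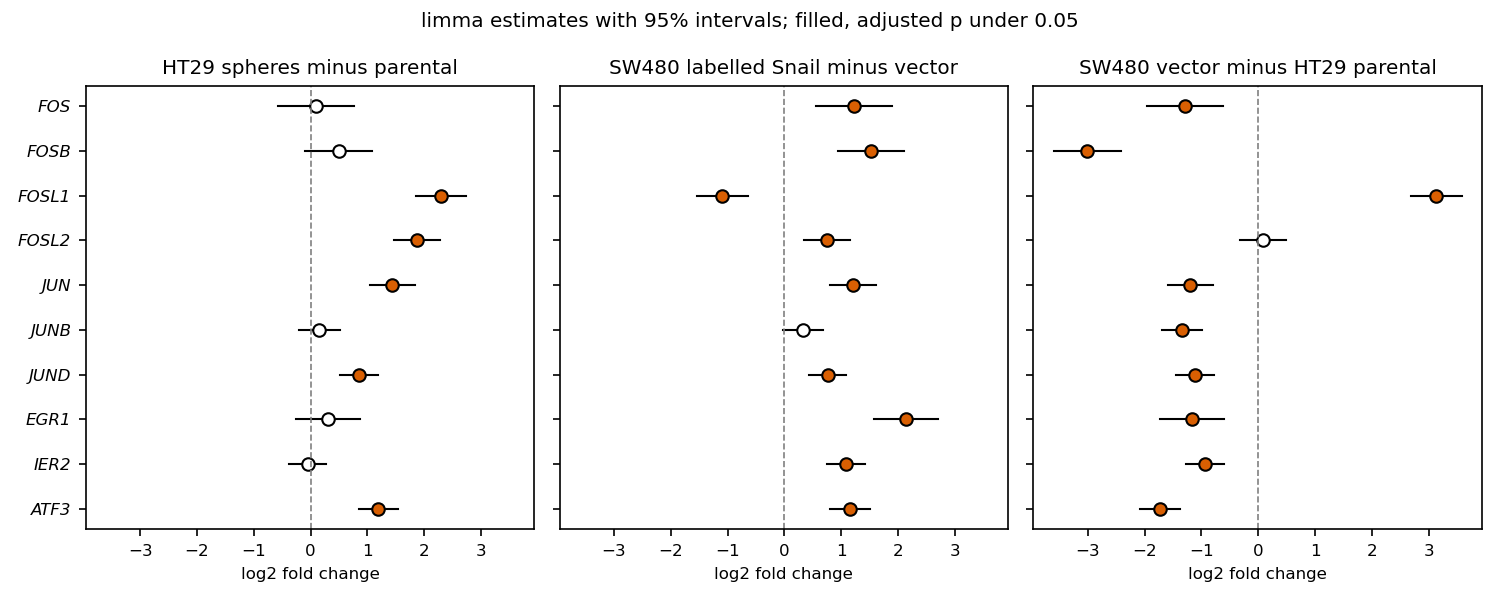
Log2 fold change of each member from limma with its 95% interval, in HT29 spheres minus parental cells, SW480 arrays labelled Snail minus vector, and SW480 vector minus HT29 parental cells; filled points have an adjusted p under 0.05. FOSL1 is the member with a fall in the arrays labelled Snail (-1.09) and the largest rise in spheres (2.30).

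**Figure D3:**
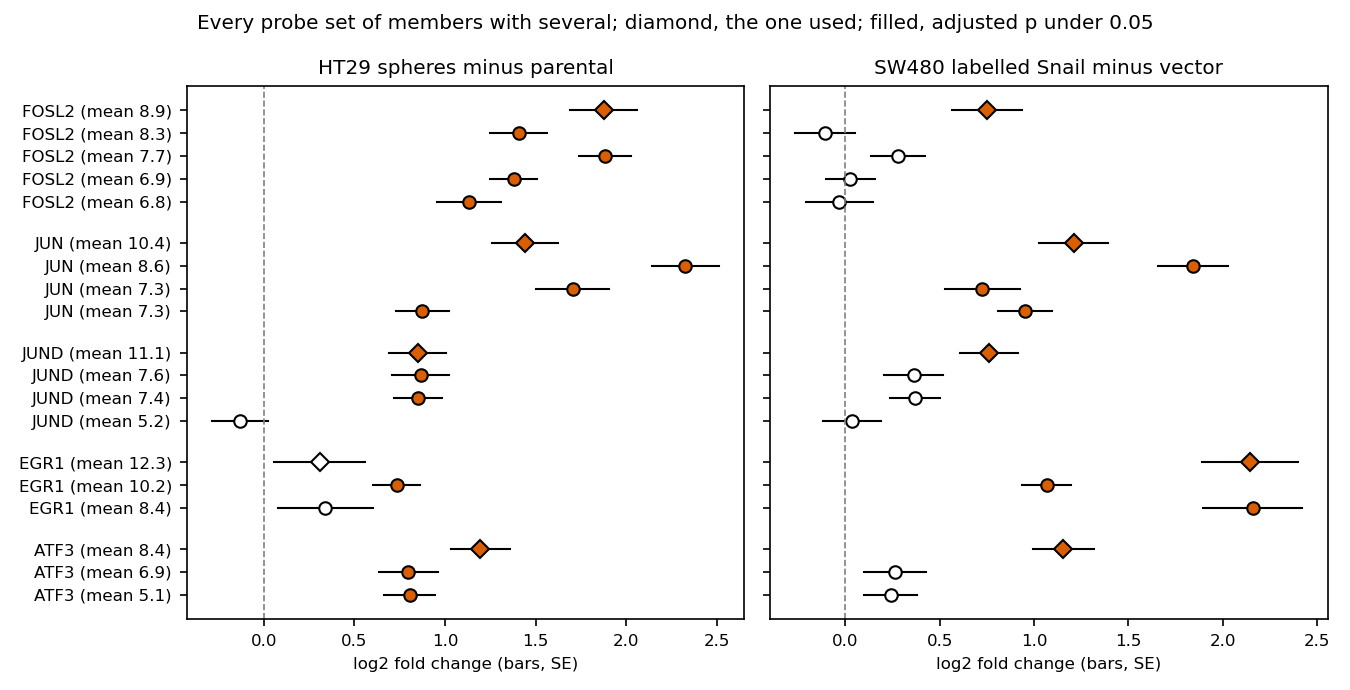
Log2 fold change ± SE of every probe set of the 5 members read by more than 1, labelled by the mean log2 level over 8 arrays; diamonds mark the probe set used and filled symbols an adjusted p under 0.05 among all probe sets naming 1 gene. All probe sets of JUN are filled in both panels, whereas for FOSL2, JUND and ATF3 the SW480 panel has 1 filled symbol each.

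The 2 lines differed in these genes before either change. Of the 10 members 9 were called between vector SW480 and parental HT29 cells, where 46.1% of all genes were. Without the dimmest 40% of genes the share was 65.0%. In SW480 vector cells 8 members were lower, where 23.5% of all genes were, and FOSL1 was higher, where 22.6% were. The arrays of 9 members did not overlap, which held for 72.2% of all genes. FOSL1 was 8.80-fold higher in SW480 vector cells (3.14 ± 0.20 log2, limma adjusted p = 5.71e-07), with the arrays of the lines far apart. FOSB was 8.06-fold lower (-3.01 ± 0.26, limma adjusted p = 6.24e-06) and ATF3 3.31-fold lower (-1.73 ± 0.16, limma adjusted p = 7.64e-06). FOS, JUN, JUNB, JUND, EGR1 and IER2 were 1.92-fold to 2.54-fold lower, each past the threshold, although 1 dimmer probe set each of EGR1 (-0.17) and JUN (-0.39) did not pass and the dimmest of JUND gave 0.19. FOSL2 differed by 0.09 ± 0.18 log2 and did not pass (limma adjusted p = 0.734), though dimmer probe sets of it gave 0.67 and 0.97, both past the threshold. The fall of ATF3 was not shared by its dimmer probe sets, which gave 0.56, past the threshold, and 0.20. This comparison shares its HT29 parental arrays with the sphere comparison and its vector arrays with the other, so its values are not independent of either. The lines differ in origin, and a vector was present in 1 of them.

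The orders given here are those of the probe set used for each gene. Over the 4 groups, FOS, FOSB, JUNB, JUND and ATF3 had the same order of means, highest in spheres, then HT29 parental, then SW480 labelled Snail, and lowest in SW480 vector cells. For FOSB, JUND and ATF3 no neighbouring groups in that order overlapped, whereas for FOS the first 3 groups ran into each other and for JUNB the first 2 did. Dimmer probe sets of ATF3 and JUND did not keep this. One of ATF3 read 6.48 and 6.17 log2 in parental cells, below 6.85 and 6.92 in vector cells. One of JUND read 7.43 and 7.81 log2 in parental cells, which overlapped 7.47 and 7.34 in the arrays labelled Snail. JUN ran from spheres to the arrays labelled Snail, parental and vector cells, with the middle 2 overlapping. EGR1 and IER2 were highest in the arrays labelled Snail and lowest in vector cells. The sphere and parental arrays of both overlapped, and for IER2 the arrays labelled Snail overlapped the parental ones too. FOSL1 had an order of its own among the members: vector cells, spheres, the arrays labelled Snail and parental cells, with no overlap between neighbours. FOSL2 was highest in spheres and then in the arrays labelled Snail, while its vector and parental arrays overlapped.

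The 2 HT29 parental arrays differed in these genes more than most genes did. Their median gap over the members was 0.50 log2, against 0.18 over all genes, and 8 members read higher on parental array 2. FOS, FOSB and EGR1 were 1.14, 0.69 and 0.95 log2 higher on array 2, gaps wider than those of 99.4%, 95.9% and 98.8% of genes. FOSL1 and ATF3 were 0.68 and 0.44 log2 lower on that array. In the arrays labelled Snail all 10 members read lower on array 2, by 0.09 to 0.80 log2, where 43.9% of all genes did. The pairs of sphere and vector arrays had median gaps of 0.10 and 0.09 log2 over the members, below the 0.14 and 0.12 over all genes.

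Genes with a pattern most like a member were sought by the root mean square difference of log2 values over the 8 arrays, after each gene's own mean was subtracted, for the 3 members with the widest range of group means. For FOSL1 these were FBXO2 at 0.26 log2, FSCN1, which encodes the actin-bundling protein fascin, at 0.37, and PTPRO, a receptor phosphatase, at 0.43. Nearest to FOSB were the RNA-binding protein gene RBM4 (0.30), DENND1B (0.32) and CREBRF (0.34). ATF3 lay closest to PDK1, a pyruvate dehydrogenase kinase, and TDG, a DNA glycosylase, both at 0.14, and NCR3LG1 at 0.16. Such likeness is a description of 8 arrays in 4 groups.

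Among 26 measured other immediate early genes, 17 were higher and 4 lower in spheres, with a median of 0.57 log2. Over all genes 12.4% were higher and 19.0% lower in spheres, while for the arrays labelled Snail these shares were 8.91% and 7.34%. CCN1, a secreted matrix signalling protein, rose by 1.72 ± 0.13 log2, NR4A2, an orphan nuclear receptor, by 1.52 ± 0.16 and KLF4, a zinc finger factor of differentiating epithelium, by 1.21 ± 0.13. The 4 that fell were KLF2, BTG1, ZFP36L1 and ID1. The 17 rises became 11 without sphere array 2, and the 4 falls became 1 without sphere array 1. Of the same 26, 5 rose, 3 fell and 18 did not pass in the arrays labelled Snail, at a median of 0.20 log2. Other settings that left out no array gave 5 to 9 rises, the most with array weights. GADD45A, a stress-induced growth arrest gene, rose by 1.01 ± 0.17, KLF10 by 0.99 ± 0.15 and EGR3, a relative of EGR1, by 1.28 ± 0.20, besides KLF6 and IER3, while KLF2, CCN1 and ARC fell. Without vector array 1 none of the 3 falls was called, and without any 1 of the other SW480 arrays 1 was.

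Of 14 other leucine zipper genes of the family, MAFF and ATF5 rose in spheres, ATF4, ATF2 and JDP2 fell, and 9 did not pass. Among all genes 12.4% were higher and 19.0% lower. MAFF, a small Maf protein, rose by 1.30 ± 0.15 log2, ATF2, a partner of JUN, fell by 1.47 ± 0.19, and ATF4, which drives amino acid response genes, fell by 1.04 ± 0.12. MAF, ATF4, MAFF and ATF7 rose in the arrays labelled Snail, and the other 10 did not pass. The mean of MAF was low, at 4.47 log2 in vector cells, below every array's median, and 5.87 in the arrays labelled Snail. There 8.91% of all genes were higher and 7.34% lower. MAF rose by 1.40 ± 0.22, MAFF by 0.71 ± 0.15 and ATF4 by 0.63 ± 0.12, and the 4 rises became 1 or 2 without any 1 SW480 array.

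Of 19 measured growth factor receptors, MAP kinases and nuclear activators, 1 rose (MAP2K4) and 8 fell in spheres, at a median of -0.14 log2, where 12.4% of all genes were higher and 19.0% lower. Under quantile normalisation 3 rose and 5 fell, with the mean of all probe sets 4 rose and 5 fell, and with the most variable probe set 5 rose and 6 fell. FGFR2, a receptor for FGF, fell by 2.33 ± 0.17, ELK3, a serum response factor partner, by 0.92 ± 0.14, and MAP2K2, the ERK kinase MEK2, by 0.79 ± 0.14. The 8 falls became 3 without sphere array 1 and 4 without sphere array 2. For SW480, 3 rose (MRTFB, FGFR2, ELK4) and 3 fell (EGFR, ELK3, MAP2K2) in the arrays labelled Snail. There 8.91% of all genes were higher and 7.34% lower. ELK3 fell by 0.56 ± 0.14. MRTFB, a cofactor of serum response factor, rose by 0.64 ± 0.13 and EGFR, the EGF receptor, fell by 0.83 ± 0.17. Without vector array 1 all 6 of these calls were lost, and without any 1 of the other SW480 arrays 1 or 2 calls were made.

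Of 17 repressors and feedback genes, 8 rose and 5 fell in spheres, where 12.4% of all genes were higher and 19.0% lower. DUSP5, a nuclear phosphatase that inactivates ERK, rose by 2.71 ± 0.24 log2, NAB2, a corepressor of EGR1, by 1.32 ± 0.14 and DUSP2, another nuclear phosphatase, by 1.22 ± 0.16. DUSP6, SPRY2, SPRED1, SPRED2 and COP1 fell, and all 5 calls were lost without sphere array 1, and 2 genes of the list were called lower without sphere array 2. DUSP2 rose in the arrays labelled Snail by 1.21 ± 0.16 and SPRY1, a receptor signalling inhibitor, by 1.23 ± 0.19. DUSP1, SPRY2 and SPRED1 rose too, and DUSP10, a phosphatase of stress kinases, fell by 0.70 ± 0.14. There 8.91% of all genes were higher and 7.34% lower. The 5 rises became 2 without vector array 1, vector array 2 or Snail-labelled array 1.

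Genes described as AP-1 targets were higher in spheres in 15 of 29 cases, with 1 lower and 13 not past. Their median was 0.69 log2, and among all genes 12.4% were higher and 19.0% lower. SPRR1B and SPRR3, cornified envelope proteins, rose by 6.42 ± 0.17 and 4.70 ± 0.13 log2, and PLAUR, the urokinase receptor, by 3.18 ± 0.16. The 1 that fell was ITGA2, an integrin subunit. Of these 29, 4 rose, 7 fell and 18 did not pass in the arrays labelled Snail, at a median of -0.06. There 8.91% of all genes were higher and 7.34% lower. PLAUR fell by 1.33 ± 0.16, ITGA2 by 1.19 ± 0.13 and PLAU, the protease urokinase, by 1.02 ± 0.13, while CXCL8, HMOX1, CCND1 and CDKN1A rose. The 4 rises became 2 without vector array 1 or without Snail-labelled array 2. The difference between the comparisons was past the threshold and higher in 15 of the 29, where 10.6% of all genes were. The target list was written with earlier results of these data known, so these counts are a description and no test. Many of these targets also answer to other factors.

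Of 13 stress genes linked to ATF4 and ATF3, 4 rose in spheres (VLDLR, PPP1R15A, CEBPB, HSPA5) and 5 fell (ASNS, CHAC1, SESN2, DDIT4, GDF15), where 12.4% of all genes were higher and 19.0% lower. ASNS, the asparagine synthetase, fell by 2.25 ± 0.25 log2 and CHAC1, a glutathione-degrading enzyme, by 2.02 ± 0.29, while VLDLR, a lipoprotein receptor, rose by 1.34 ± 0.14. GDF15, a secreted stress cytokine, rose in the arrays labelled Snail by 2.03 ± 0.26. HSPA5, the chaperone BiP, fell there by 1.02 ± 0.14, and 11 did not pass. For these arrays 8.91% of all genes were higher and 7.34% lower. Leaving out HT29 parental array 1, or instead array 2, gave 3 rises and 2 falls. Array weights gave 4 rises, and a variance trend, the replicate block and each line fitted alone gave 3 each.

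**Figure D4:**
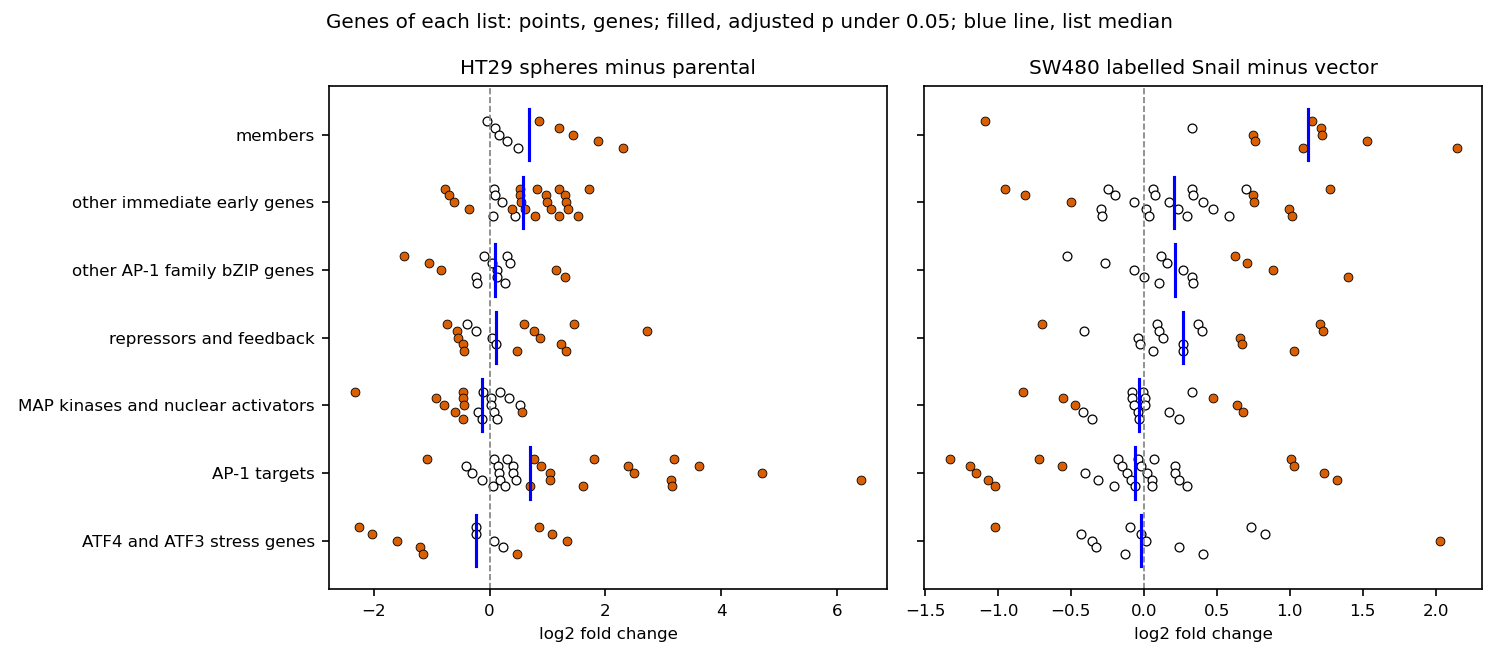
Log2 fold change of every measured gene of the 10 members and 6 related lists in HT29 spheres minus parental cells (left) and SW480 arrays labelled Snail minus vector (right), on axes of different length; filled points have an adjusted p under 0.05 and blue lines are list medians. The members' median is 0.67 on the left and 1.12 on the right, whereas that of the AP-1 targets is 0.69 on the left and -0.06 on the right.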

How the data were processed

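Array data of 8 samples were used. The deposited log2 values, 1 per probe set and array, were made by the authors with RMA, per the submitters' processing notes. The RMA version and probe definitions are not given in the sources used. RMA forces arrays to a common distribution and gives no detection call, so low values carry no statement on presence. Of 54675 probe sets, 41097 named 1 gene in GEO's platform annotation, which may be old. Of these, 41043 matched RefSeq by gene ID, which changed 0 symbols. RefSeq also gave the promoters. Levels are compared within a probe set only.

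Group means over all 8 arrays were fitted with limma 3.58.1 in R 4.3.3 (4 residual and 6.10 prior degrees of freedom). Tests were two-sided and adjusted over 19775 genes by Benjamini-Hochberg at 0.05; for single probe sets, over all probe sets naming 1 gene. Means are ± SD and changes ± SE. A permutation test of 2 against 2 cannot give an exact p under 0.333 and was not used. The fit was tested on simulated data. The members and lists were chosen with earlier results of these data known, and no set test was run. From each of the 6 related lists, up to 3 genes with the lowest adjusted p per comparison are named with values; other genes of the lists and promoters shown were chosen after their values were seen. Of 4 marker lists, colon epithelial ones are given in the results and others in the closing section. Scan dates were not given, so no batch was tested. Replicate numbers in the labels were not treated as pairs, since same-numbered arrays did not deviate together (r = 0.03 in HT29 and -0.03 in SW480 over 19775 genes).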

Additional observations from a re-analysis of the deposited data

How the results depend on the processing

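Each member's change was recomputed with the mean or the most variable of its probe sets, each other probe set, quantile normalisation, median centring, without the dimmest 40% of genes, each line alone, array weights, a variance trend, a replicate block, and without each array. Of 716 such values, 20 lost a call, 16 gained one and 6 called values turned sign. Those 6 came from dimmer probe sets: FOSL2 gave -0.031 and -0.11 log2 in the arrays labelled Snail, ATF3 0.56 and 0.20 and JUND 0.19 between the lines, and JUND -0.13 in spheres. Only the 0.56 of ATF3 was past the threshold (limma adjusted p = 0.0185), and the others of the 6 lost their call, besides the 20. The mean of its probe sets gave FOSL2 0.18 in the arrays labelled Snail (limma adjusted p = 0.302). The count of members called stayed within 5 to 7 in spheres, 6 to 9 in the arrays labelled Snail and 9 to 10 between the lines. The replicate block gave 5 in spheres and 9 in the arrays labelled Snail; its only changed member calls were the differences of FOS (-1.12, limma adjusted p = 0.0416) and FOSB (-1.03, limma adjusted p = 0.0315), so that 4 members, against 2, had a lower difference. Without 1 SW480 array, 1447 to 1602 genes in all passed in the arrays labelled Snail, against 3213. Of 792 counts for the related lists, 95 lay over 1.5 times from the reported one. Fits without 1 array leave a lone array, assumed to vary like the other groups. The cause of these changes was not tested.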

Other observations

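FOSL1 and 3 of 29 measured AP-1 targets, PLAU, PLAUR and TIMP1, were past the threshold upward in spheres and downward in the arrays labelled Snail. This is 10.3% of the targets, against 1.21% of all genes (239 of 19775), and was chosen after the values were seen. The target list was itself written with earlier results of these data known, so these shares are a description and no test. The sphere comparison and that of the arrays labelled Snail share no array. PLAUR had means of 11.90 ± 0.05 log2 in spheres and 8.72 ± 0.25 in parental cells, and of 8.28 ± 0.26 in the arrays labelled Snail and 9.61 ± 0.02 in vector cells (SD, n = 2 each). TIMP1, an inhibitor of matrix metalloproteinases, had means of 13.32 ± 0.05 log2 in spheres and 10.94 ± 0.10 in parental cells, and of 10.95 ± 0.03 in the arrays labelled Snail and 11.67 ± 0.04 in vector cells (SD, n = 2 each). PLAU had means of 7.22 ± 0.10 log2 in spheres and 5.42 ± 0.01 in parental cells, and of 6.45 ± 0.07 in the arrays labelled Snail and 7.48 ± 0.13 in vector cells (SD, n = 2 each).

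Markers of other cell types were read as a list. Of 7 mesenchymal markers 5 lay above the array median in spheres, 4 in parental, 4 in the arrays labelled Snail and 3 in vector arrays. Of these 7, LUM rose in spheres by 3.78 ± 0.15 log2 and ACTA2 in the arrays labelled Snail by 0.73 ± 0.13, and the mean over the list ran from 6.33 to 6.44 on sphere arrays, 5.74 to 5.77 on parental, 5.72 to 5.81 on those labelled Snail and 5.54 on vector arrays. Of 3 leukocyte markers measured CD3E was called in spheres (0.39 ± 0.13) and in the arrays labelled Snail CD14 had the lowest adjusted p (0.31, limma adjusted p = 0.356). Of 3 endothelial markers PECAM1 was called in both, at 0.57 in spheres and -0.55 in the arrays labelled Snail. Of 10 colon epithelial markers, CEACAM5 (4.75 ± 0.18), KRT20 (1.59 ± 0.20) and KRT19 (0.64 ± 0.12) rose and VIL1 fell in spheres, and KRT8, CDH1 and KRT19 rose and VIL1 fell by 1.06 ± 0.17 in the arrays labelled Snail. Their part in the changes of the AP-1 genes was not tested.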
